A study of Mus musculus with 12 samples.

Results

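Interleukins and the cytokines of the TNF family are secreted or membrane-bound proteins by which immune cells, fat cells and epithelia signal to each other. Each acts through receptor chains of a few related families, and decoy receptors and antagonists bind a ligand or a receptor without passing the signal on. In fat tissue, macrophages and lymphocytes that gather during weight gain are known sources and targets of these proteins, and Tnf and Il1b are known to interfere with insulin signalling in fat cells. Members were taken by gene symbol from the array's gene-name table: every symbol that begins with Il, Tnfsf or Tnfrsf and a number, and Tnf, Lta and Ltb. This gave 171 probes of 115 symbols, out of 25697 probes of 18138 symbols on the array. A probe was kept where at least 3 of the 12 arrays had a detection p-value below 0.05 for it, and it is called detected here. That held for 88 of the member probes and 64 of the member symbols, against 15765 probes and 11787 symbols of the whole array. Each gene was represented by its detected probe with the highest mean intensity.

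RNA came from the epididymal fat of male C57BL/6J mice at 20 weeks of age and was measured on an Illumina bead array. The 4 groups were Siah2 knockout mice on a high fat diet (45% fat) and on a low fat diet (10% fat), and wild type mice on the same high fat and low fat diets, which began at 4 weeks. Siah2 encodes an E3 ligase that attaches ubiquitin to other proteins. Each group had 3 arrays, each a pool of RNA: the 8 knockout mice on high fat formed pools of 2 or 3 animals, and the 10 mice of each other group formed pools of 3 or 4. The knockout was global, so a difference in fat need not arise in fat cells. Values are the authors' normalized intensities, a linear brightness with the background subtracted, so values can be below 0. An intensity of 27.9 was taken as an approximate detection floor.

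The 12 arrays detected between 13389 and 15037 probes each. The Siah2 probe read 44.97 to 68.2 in knockout pools on high fat, against 78.7 to 111 in wild type pools on high fat, and 62.2 to 102 in knockout pools on low fat, against 91.6 to 121 in wild type pools on low fat. Its log2 difference, knockout minus wild type, was -0.43 on high fat and -0.31 on low fat, not called on either diet (limma, adjusted p = 0.338 and 0.2). The sources used here do not say where the probe lies relative to the deleted part, so it does not check the labels. Genes of the epididymis and of the seminal vesicle, which lie next to this fat, differed widely between pools, and their values are given beside the members' results. Pool 2 of the knockout mice on low fat read well above pools 1 and 3 for several members, and pool 2 of the knockout mice on high fat was high in epididymal genes, so the knockout results are also given without these 2 pools.

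Ligands were mostly below detection. Of 45 ligands 16 were detected, against 37 of 55 receptors, 5 of 6 decoy receptors and 3 of 4 antagonists. The probes for Il6, Il10, Ltb, Il1a, Il4, Il17a and both Il12 subunits did not pass, so no statement is made on these cytokines. Among receptors, Tnfrsf1b, the second TNF receptor, and Il17ra, the shared chain of IL-17 receptors, did not pass either. By family, 19 of 35 TNF family symbols, 11 of 18 of the IL-1 family, 13 of 20 of the common gamma chain, IL-3 and type 2 cytokines, 8 of 12 of the IL-10 and lambda interferon family, 5 of 11 of the IL-17 family and 5 of 14 of the IL-6 and IL-12 family were detected. The symbols Il8ra and Il8rb, older names of chemokine receptors, were not detected. In addition, 3 detected genes carry an interleukin symbol but belong to none of these families: Il16, a chemoattractant of CD4+ cells, Il4i1, an amino acid oxidase, and Il1rl1l, now named Tmed1, a protein of vesicle transport. A member that passed only through its brighter groups had to differ, so counts over detected members are descriptions.

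On high against low fat diet, 3 members rose and 1 fell in knockout mice, and 27 rose and 5 fell in wild type mice (limma, adjusted p under 0.05). These are 6.25% of the 64 members in knockout, against 4.35% of all 11787 genes (3.54% higher, 0.814% lower). In wild type they are 32 of 64, against 39.5% of all genes (22.7% higher, 16.8% lower). The median log2 change of the members was 0.15 in knockout and 0.32 in wild type, against -0.012 and 0.061 over all genes. Of the 27 members that rose in wild type, 26 had a positive change in knockout, and 26 a smaller one than in wild type, with a median of 0.39 in knockout and 0.88 in wild type. The 27 were chosen by their wild type calls, which favours larger values there. A smaller knockout value is thus partly built in. The difference between the 2 diet effects was called for no member (limma; 18 of 64 had an unadjusted p under 0.05) and for 0.102% of all genes (0.0594% higher, 0.0424% lower). A call in wild type and none in knockout is therefore not shown to be a difference between genotypes.

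**Figure D1:**
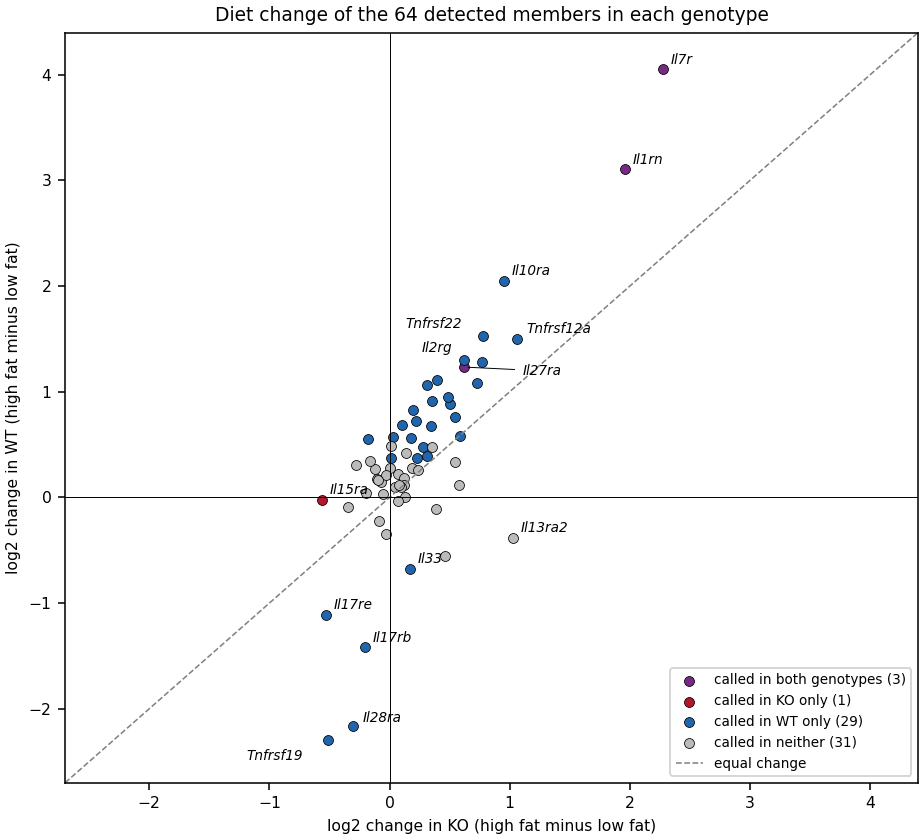
Log2 change between high fat and low fat diet for each of the 64 detected members, in knockout (horizontal axis) and in wild type mice (vertical axis), with colours for the genotypes in which the change was called and a dashed line of equal change. Il7r and Il1rn lie at the upper right with changes of 2.27 and 1.96 in knockout and 4.05 and 3.11 in wild type, and 26 of the 27 members that rose in wild type lie above the dashed line. These 27 were chosen by their wild type calls, which favours that side of the line.

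The receptor Il7r and the antagonist Il1rn had the largest rises in both genotypes. Il7r is the alpha chain of the interleukin-7 receptor, which lymphocytes need for survival. Its intensity was 344, 904 and 1247 in knockout pools on high fat, against 106, 167 and 77.8 in knockout pools on low fat. In wild type it was 2147, 1767 and 1319.6 on high fat, against 60.5, 52.2 and 56.5 on low fat. No high fat pool overlapped with the low fat pools of its genotype, and the lowest high fat value was that of knockout pool 1. The log2 change was 2.27 ± 0.37 (SE, n = 3 pools a group) in knockout and 4.05 ± 0.37 in wild type (limma, adjusted p = 0.00878 and 5.52e-05). A dimmer second Il7r probe changed by 0.80 in knockout, not called, and by 1.26 in wild type, called.

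Il1rn, the antagonist that occupies the IL-1 receptor without signalling, read 105, 177 and 252 in knockout pools on high fat, against 3.21, 21.5 and -2.31 in knockout pools on low fat. Wild type pools read 495, 399.7 and 320.5 on high fat, against -3.27, 9.11 and 1.61 on low fat. All 6 low fat pools lay under the detection floor and all 6 high fat pools above it, so the gene was detected through the high fat diet. It was at least 6.02-fold higher on high fat in knockout and at least 14.3-fold higher in wild type, with log2 changes of 1.96 ± 0.24 and 3.11 ± 0.24 (SE; limma, adjusted p = 0.00341 and 2.62e-05). A dimmer second Il1rn probe changed by 0.25 in knockout, not called, and by 0.84 in wild type, called.

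The promoters of 4 members called in wild type are shown because these genes moved with diet, the first 3 upward and Il28ra downward. Each runs from 250 bases before to 50 bases after the annotated start, from RefSeq on GRCm38.p6, 5′ to 3′ on the gene's strand. They lie at chr15:9529827-9530126 (minus strand) for Il7r, chr2:24336610-24336909 (plus strand) for the first of several Il1rn starts, chr17:35201958-35202257 (minus strand) for Tnf and chr4:135686207-135686506 (plus strand) for Il28ra, now named Ifnlr1. Capitals mark matches, on either strand, to 3 motifs of factors that act in inflammatory genes: the kappaB consensus, the AP-1 motif TGANTCA and the PU.1 core GAGGAA; no matches overlap here.
Il7r: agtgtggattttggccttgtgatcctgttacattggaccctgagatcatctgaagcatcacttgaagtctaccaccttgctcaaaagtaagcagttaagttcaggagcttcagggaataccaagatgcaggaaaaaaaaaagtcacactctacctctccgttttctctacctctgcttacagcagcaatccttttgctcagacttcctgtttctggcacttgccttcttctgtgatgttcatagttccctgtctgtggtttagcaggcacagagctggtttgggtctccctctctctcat
Il1rn: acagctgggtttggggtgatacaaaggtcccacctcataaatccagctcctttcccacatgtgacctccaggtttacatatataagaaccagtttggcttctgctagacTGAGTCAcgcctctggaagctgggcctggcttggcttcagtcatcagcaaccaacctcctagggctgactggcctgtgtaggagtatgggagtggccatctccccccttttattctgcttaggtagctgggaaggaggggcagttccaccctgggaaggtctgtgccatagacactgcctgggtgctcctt
Tnf: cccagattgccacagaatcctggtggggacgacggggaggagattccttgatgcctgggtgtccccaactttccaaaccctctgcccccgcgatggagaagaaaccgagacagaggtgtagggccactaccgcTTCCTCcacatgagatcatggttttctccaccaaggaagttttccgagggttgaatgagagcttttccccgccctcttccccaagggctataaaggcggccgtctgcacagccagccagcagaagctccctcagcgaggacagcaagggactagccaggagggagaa
Il28ra: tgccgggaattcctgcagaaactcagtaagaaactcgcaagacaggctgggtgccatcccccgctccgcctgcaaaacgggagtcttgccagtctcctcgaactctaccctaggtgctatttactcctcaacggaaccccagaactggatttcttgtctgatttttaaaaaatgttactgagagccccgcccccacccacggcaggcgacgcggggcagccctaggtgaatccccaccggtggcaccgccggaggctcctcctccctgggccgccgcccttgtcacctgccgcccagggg

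The Il1rn window held an AP-1 match 141 bases before the start, and the Tnf window held a PU.1 core on the opposite strand 117 bases before it. The Il7r and Il28ra windows held none of the motifs, nor did Il1rn windows 2 and 3, which are not shown. The genes shown include the largest rises, Il7r and Il1rn, but are not a ranking by change. Several rises exceeded that of Tnf (0.95), and Tnfrsf19, the largest fall (-2.30), is not shown. Its window 1 held no match and its window 2 a PU.1 core on the opposite strand 103 bases before the start. Among all 32851 RefSeq windows of this length, 8.46% held the kappaB consensus, 7.81% the AP-1 motif and 28.3% the PU.1 core. A window was found for 52 of the 64 detected members, 68 windows in all because some genes have several starts, and 8.82% of these held the kappaB consensus, 16.2% the AP-1 motif and 26.5% the PU.1 core. These are letter matches and say nothing of binding in fat.

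Among the 16 ligands none was called in knockout (limma; 5 had an unadjusted p under 0.05), and 6 rose and 1 fell in wild type on high fat. Over all genes 4.35% were called in knockout and 39.5% in wild type. Tnf, the founding member of its family, read 12.6, 17.9 and 13.7 in knockout pools on high fat, against -11.4, 6.53 and -4.68 in knockout pools on low fat. The wild type values were 47.9, 26.9 and 38.95 on high fat, against -5.24, -9.71 and 1.01 on low fat. Only 2 pools, both from wild type mice on high fat, exceeded the floor, while within each genotype the diets did not overlap. Tnf changed by 0.48 ± 0.15 in knockout and 0.95 ± 0.15 in wild type (log2, SE; limma, adjusted p = 0.115 and 0.00104). All 6 knockout pools lay under the floor, so no fold is drawn in knockout, and in wild type Tnf was at least 1.32-fold higher on high fat.

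The other ligands that rose in wild type were Tnfsf13b (BAFF, a B cell survival factor) by 0.83, Il17d by 0.76 (-0.0085 with the epididymal covariate described below), Il18, which drives interferon gamma production, by 0.72, Il7, the ligand of Il7r, by 0.67 and the fusion transcript Tnfsf12-tnfsf13, at least 1.24-fold higher. With that covariate the log2 changes were 0.53 for Tnfsf13b, 0.067 for Il18, 0.30 for Il7 and 0.058 for Tnfsf12-tnfsf13, none called. Il33, an alarmin of stromal and epithelial cells, read 265, 346 and 276 in knockout pools on high fat, against 342, 182 and 263 in knockout pools on low fat, with overlap. It read 198, 190.0 and 204 in wild type pools on high fat, against 353, 404 and 288 in wild type pools on low fat, without overlap. Its log2 change was 0.17 ± 0.18 in knockout, not called, and -0.68 ± 0.18 in wild type (SE; limma, adjusted p = 0.701 and 0.0139). Without wild type pool 2 on low fat the wild type value was -0.58 and no longer called (limma, adjusted p = 0.0565).

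Il1b, the main secreted IL-1, read 71.3, 26.4 and 34.2 in knockout pools on high fat, against 22.3, 16.4 and 2.76 in knockout pools on low fat. It read 21.6, 41.2 and 18.5 in wild type pools on high fat, against 3.18, 12.5 and 17.1 in wild type pools on low fat. The diets did not overlap within a genotype, but neither change was called (log2 0.54 ± 0.19 in knockout and 0.34 ± 0.19 in wild type, SE; limma, adjusted p = 0.172 and 0.195). Lta (lymphotoxin alpha) read 12.9, 0.875 and 4.74 in knockout pools on high fat, against 12.02, -0.208 and -1.91 in knockout pools on low fat. It read 22.8, 32.2 and 9.14 in wild type pools on high fat, against 12.8, 12.4 and 21.3 in wild type pools on low fat. Its diets overlapped in both genotypes and 1 pool exceeded the floor.

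Of 3 antagonists 1 rose in knockout and 2 in wild type, and of 5 decoy receptors none was called in knockout (limma; 3 had an unadjusted p under 0.05) and 3 rose in wild type. Over all genes 4.35% were called in knockout and 39.5% in wild type, and sets of 3 and 5 genes are too small to be told apart from these shares. Besides Il1rn, the IL-1 family member Il1f10 rose by 0.38 in wild type. The decoys that rose in wild type were Tnfrsf22, a mouse decoy receptor for TRAIL, Tnfrsf11b (osteoprotegerin, the decoy of RANKL) by 1.28 and Il1r2, the decoy IL-1 receptor. All low fat wild type pools of Il1r2 and 1 of 3 on high fat lay under the floor, which leaves no fold to give. Tnfrsf22 read 243, 206 and 251 in knockout pools on high fat, against 83.3, 182 and 94.5 in knockout pools on low fat. In wild type it read 290.3, 377 and 240.1 on high fat, against 83.7, 67.9 and 61.9 on low fat. The diets did not overlap in either genotype, and the low fat knockout pool nearest to the high fat pools was pool 2. It changed by 0.78 ± 0.21 in knockout and 1.53 ± 0.21 in wild type (log2, SE; limma, adjusted p = 0.0629 and 0.000426). A second Tnfrsf22 probe rose by 0.93 in wild type.

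Of 37 signalling receptors 2 rose and 1 fell in knockout, and 14 rose and 4 fell in wild type. The share called in wild type was 48.65% of receptors and 43.75% of ligands, near the 39.5% of all genes. In knockout 8.11% of receptors were called, against 4.35% of all genes. The rises in wild type included receptors that leukocytes carry: Il10ra and Il10rb, both chains of the interleukin-10 receptor, Il2rg, the common gamma chain that pairs with Il7r, and Il27ra. Il10ra read 314, 226 and 311 in knockout pools on high fat, against 78.7, 234 and 86.9 in knockout pools on low fat. Wild type pools read 486, 419 and 406 on high fat, against 53.1, 74.98 and 74.9 on low fat. The knockout diets overlapped, since pool 2 on low fat read above pool 2 on high fat, and the wild type diets did not. The Il10ra change was 0.95 ± 0.26 in knockout and 2.05 ± 0.26 in wild type (log2, SE; limma, adjusted p = 0.0691 and 0.000284).

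Il27ra, a receptor that restrains and shapes T cell responses, read 252, 237 and 295 in knockout pools on high fat, against 135, 177 and 146 in knockout pools on low fat. Its wild type values were 409.9, 427 and 499.7 on high fat, against 163, 170.0 and 147 on low fat. It rose in both genotypes with no overlap between diets, by 0.62 ± 0.12 in knockout and 1.23 ± 0.12 in wild type (log2, SE; limma, adjusted p = 0.0159 and 6.58e-05). In knockout the call was lost without high fat pool 3, low fat pool 1 or low fat pool 3 (limma, log2 0.55 to 0.60, adjusted p 0.0692 to 0.0794). The second, dimmer Il27ra probe changed by 0.32 in knockout, not called, and by 1.09 in wild type, called.

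Tnfrsf12a (Fn14), the receptor of TWEAK, read 395, 508 and 368 in knockout pools on high fat, against 119, 285 and 153 in knockout pools on low fat. In wild type it read 579.6, 465 and 393 on high fat, against 201, 121 and 98.3 on low fat. There was no overlap of diets in either genotype. Its log2 change was 1.06 ± 0.27 in knockout, not called, and 1.50 ± 0.27 in wild type (SE; limma, adjusted p = 0.0521 and 0.0018). Il2rg read 117, 78.2 and 91.8 in knockout pools on high fat, against 34.00, 96.6 and 17.99 in knockout pools on low fat, with overlap through low fat pool 2. It read 127, 169 and 180.0 in wild type pools on high fat, against 19.5, 50.4 and 35.4 in wild type pools on low fat, without overlap. It changed by 0.62 ± 0.25 in knockout, not called, and rose by 1.30 ± 0.25 in wild type (log2, SE; limma, adjusted p = 0.243 and 0.00289). Tnfrsf11b, named above, read 314, 338 and 702 in knockout pools on high fat, against 300.4, 293 and 128 in knockout pools on low fat, and 414, 319 and 190.2 in wild type pools on high fat, against 103, 169.8 and 34.7 in wild type pools on low fat. The diets of Tnfrsf11b did not overlap in either genotype, and its low fat pools spread widely.

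The remaining receptors that rose in wild type were Il3ra by 0.91, Il10rb by 0.88, Tnfrsf1a, the first TNF receptor, by 0.56 (-0.13 with the epididymal covariate), Tnfrsf25 by 0.55 and Il1rl1, the receptor of Il33, by 0.39. With that covariate the log2 changes were 0.22 for Il3ra, 0.49 for Il10rb, 0.43 for Tnfrsf25 and 0.32 for Il1rl1, none called. In 4 more receptors all wild type pools on low fat lay under the floor: Tnfrsf11a (RANK) was at least 1.69-fold, Il2ra at least 1.15-fold and Tnfrsf17 (BCMA) at least 1.02-fold higher on high fat. Tnfrsf26, the last of them, was above the floor in 1 high fat pool, so it has no fold. On high fat, 3 of 3 pools of Tnfrsf11a and 2 of 3 pools of Il2ra and of Tnfrsf17 were above the floor. Il16 rose by 1.12 and Il4i1 by 1.08. The wild type diets overlapped for Il1r2, Tnfrsf25 and Il2ra. In 12 fits that each left out 1 pool, 17 of the 27 rises and 4 of the 5 falls were called every time. The rises lost at least once were Il17d, Il1f10, Il1r2, Il1rl1, Il2ra, Tnfrsf11b, Tnfrsf1a, Tnfrsf25, Tnfrsf26 and Tnfsf12-tnfsf13, with log2 changes of 0.28 to 1.34 in the fits that lost them. Leaving out any wild type pool lost 6 or 7 of the 32 calls, and leaving out a knockout pool lost at most 2.

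**Figure D2:**
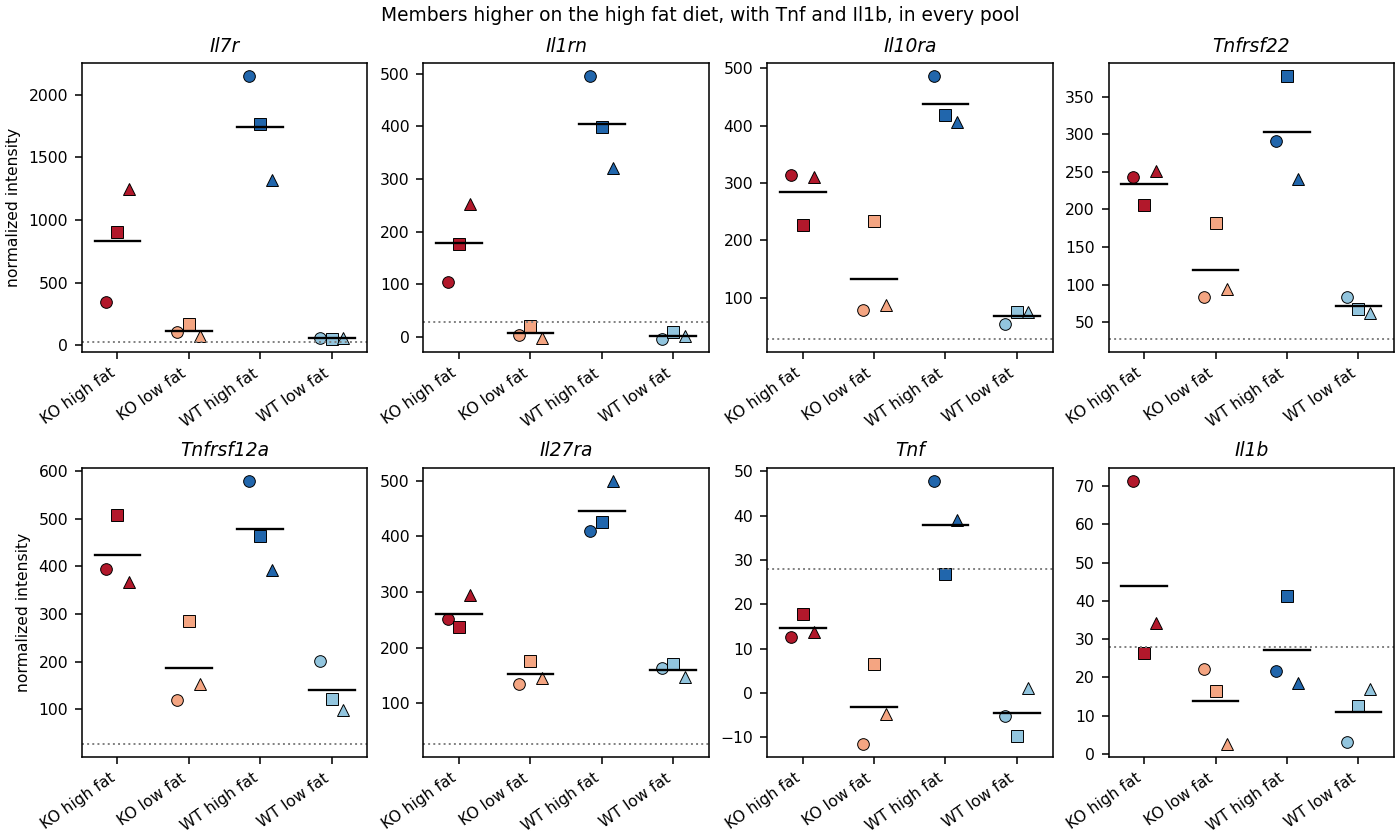
Normalized intensity of 8 members in each of the 12 pools, with circles, squares and triangles for pools 1, 2 and 3, a bar for the mean of each group and a dotted line at the detection floor of 27.9. High fat pools lie above the low fat pools of their genotype for each member shown except Il10ra in knockout, where pool 2 read 226 on high fat and 234 on low fat.

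In knockout mice, Il15ra was the 1 member that fell on high fat. It presents interleukin-15 to neighbouring lymphocytes, and it read 384, 303 and 333 in knockout pools on high fat, against 417, 586 and 590.4 in knockout pools on low fat. It read 301, 375 and 346 in wild type pools on high fat, against 355, 333 and 346 in wild type pools on low fat. The low fat knockout pools were the highest of the 12. The change was -0.57 ± 0.14 in knockout and -0.020 ± 0.14 in wild type (log2, SE; limma, adjusted p = 0.0472 and 0.922). The knockout call was lost in 11 of the 12 fits that left out 1 pool, the exception being the fit without low fat knockout pool 1 (limma, adjusted p 0.0523 to 0.197 in the 11). The 2 other Il15ra probes read -0.62 and -0.56 in knockout, without a call.

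The count of members called in knockout depended on single pools. It was 4 with all pools, 9 without low fat pool 2, 2 without high fat pool 3 and 2 without low fat pool 3. Without pool 2 of both knockout groups, an alternative chosen after seeing the data, 15 members were called, 13 higher and 2 lower. Counts over all genes in these fits are not given here, so no shift particular to the members is shown. Low fat pool 2 had been seen to read high for several of these members before it was left out, so this count gives no support for the rises. Those called were Il7r, Il1rn, Il10ra, Tnfrsf12a, Tnfrsf22, Il2rg, Il17d, Il4i1, Il10rb, Il27ra, Il16 and Il15, with log2 changes of 0.65 to 2.34, and Tnf, whose knockout pools all lay under the floor. The falls then were Il28ra (log2 -0.97) and Tnfrsf19 (-1.21). For both genes pool 2 was the highest knockout pool on high fat and the lowest on low fat. Leaving it out widens their falls, so this count gives no support for them either.

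**Figure D3:**
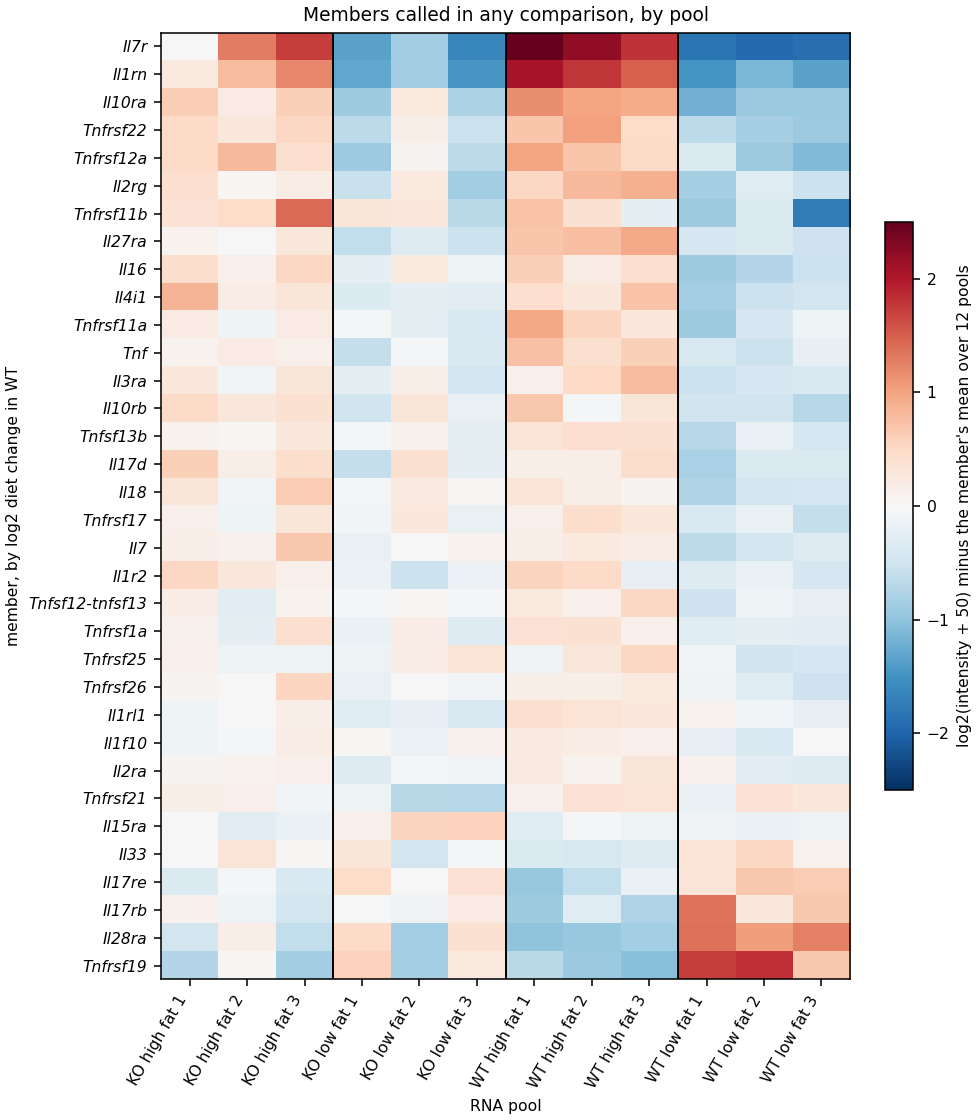
Heat map of the 34 members called in any comparison (rows, ordered by log2 change with diet in wild type) in each pool (columns), coloured by log2(intensity + 50) minus the member's mean over the 12 pools. The rising members at the top are red in both high fat groups, and pool 2 of the knockout mice on low fat is paler than pools 1 and 3 in many of these rows.

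Of the 5 members that fell in wild type on high fat, 4 were receptors: Tnfrsf19 (TROY), Il28ra, the specific chain of the lambda interferon receptor, Il17rb, a receptor of interleukin-25, and Il17re, the receptor of interleukin-17C. Lambda interferons and interleukin-17C are known to act mainly on epithelial cells. Tnfrsf19 read -1.05, 34.00 and -5.85 in knockout pools on high fat, against 70.5, -4.12 and 45.5 in knockout pools on low fat. In wild type it read 0.565, -7.31 and -10.9 on high fat, against 218, 238 and 80.05 on low fat. In knockout it was above the floor in pool 2 on high fat and in pools 1 and 3 on low fat, and in wild type in the low fat pools alone. Its log2 change was -0.51 ± 0.40 in knockout and -2.30 ± 0.40 in wild type, where it was at least 5.77-fold lower (SE; limma, adjusted p = 0.573 and 0.00152).

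Il28ra read 41.97, 91.3 and 33.1 in knockout pools on high fat, against 127, 19.9 and 115 in knockout pools on low fat. Wild type pools read 13.4, 15.7 and 20.7 on high fat, against 279, 212 and 254 on low fat, at least 8.85-fold lower on high fat. In knockout pool 2 was the highest on high fat and the lowest on low fat, whereas the wild type diets lay on either side of the floor. Its change was -0.31 ± 0.32 in knockout and -2.16 ± 0.32 in wild type (log2, SE; limma, adjusted p = 0.69 and 0.000667). A second Il28ra probe read -0.44 in knockout, not called, and -1.89 in wild type, called.

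Il17rb read 73.2, 54.1 and 32.7 in knockout pools on high fat, against 65.1, 57.2 and 82.1 in knockout pools on low fat, with overlap. It read 11.6, 42.5 and 16.8 in wild type pools on high fat, against 244, 85.9 and 132 in wild type pools on low fat, without overlap. Il17rb changed by -0.21 ± 0.27 in knockout and -1.42 ± 0.27 in wild type (log2, SE; limma, adjusted p = 0.759 and 0.00226). Il17re read 219.9, 290.1 and 216 in knockout pools on high fat, against 427, 299 and 392 in knockout pools on low fat, and 130.0, 175 and 259 in wild type pools on high fat, against 379, 499 and 488 in wild type pools on low fat. The diets of Il17re did not overlap in either genotype, and its change was -0.53 ± 0.20 in knockout, not called, and -1.11 ± 0.20 in wild type (log2, SE; limma, adjusted p = 0.203 and 0.00203).

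Epididymal and seminal vesicle genes also fell in wild type on high fat. Of 12 listed epididymal genes 9 were measured; none was called in knockout on high against low fat (limma; 6 had an unadjusted p under 0.05), and all 9 fell in wild type. The largest of these falls were in Gpx5 (-8.52), Adam7 (-7.35), Spink11 (-7.16) and Defb20 (-7.00 on the log2 scale). The mean log2(intensity + 50) of the 9 was 6.16, 11.09 and 5.91 in knockout pools on high fat, against 11.48, 9.33 and 12.20 in knockout pools on low fat. It was 7.19, 7.40 and 6.62 in wild type pools on high fat, against 13.98, 14.00 and 12.88 in wild type pools on low fat. Within the knockout groups, pool 2 was the highest on high fat and the lowest on low fat for the epididymal mean. The same held for Tnfrsf19, Il28ra, Il17re and Il33. For Il17rb pool 2 was the lowest on low fat but not the highest on high fat. Summed intensity over the 9 genes was 107 to 86947 in knockout pools on high fat, 13830.2 to 108657 in knockout pools on low fat, 659.6 to 2631 in wild type pools on high fat and 136064 to 189388 in wild type pools on low fat. Lcn9 and Gpx5 were below the floor in every pool of both high fat groups, and Lcn9 also in every knockout pool on low fat.

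Of 6 listed seminal vesicle genes 5 were measured, and all 5 fell on high fat in knockout and in wild type. The largest of these falls in wild type were of Svs5 (-8.87), Svs3b (-8.71), Svs4 (-8.67) and Svs1 (-8.64). Their sum was 1.71 to 16.6 in knockout pools on high fat, 4821 to 6249 in knockout pools on low fat, 2.35 to 46.9 in wild type pools on high fat and 53661 to 164304 in wild type pools on low fat. Within the knockout groups, pool 2 had the lowest sum on high fat (1.71) and the highest on low fat (6249). On low fat the epididymal mean of pool 2 was instead the lowest of its group. The high fat sums were near background, so their order carries no weight. All but Svs5 were below the floor in every knockout pool on high fat, and all 5 in every wild type pool on high fat. The keratin Krt19, on the list of mesothelial markers, fell (-2.57) in wild type, the 1 called of 4 measured on that list. With the epididymal mean as a covariate, none of the knockout calls remained (limma; 10 members had an unadjusted p under 0.05), with changes of 2.31 ± 0.50 for Il7r, 1.87 ± 0.33 for Il1rn, 0.48 ± 0.15 for Il27ra and -0.69 ± 0.18 for Il15ra (log2, SE). In wild type 2 of the 32 calls remained, those of Il7r (4.13 ± 0.75) and Il1rn (2.93 ± 0.49; SE, limma, adjusted p = 0.0497 and 0.0398). Of the falls, Tnfrsf19 then read -0.65 ± 0.52 and Il28ra -0.89 ± 0.44 in wild type (log2, SE), not called. Il17rb read -1.17 ± 0.53, Il17re -0.70 ± 0.39 and Il33 -0.067 ± 0.30 there (log2, SE), not called either. The covariate does not overlap between the wild type diets, so there it cannot be told apart from diet, and the SE of Il7r was 0.75 with it, against 0.37 without it. The part of these tissues in the members' changes was not tested.

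**Figure D4:**
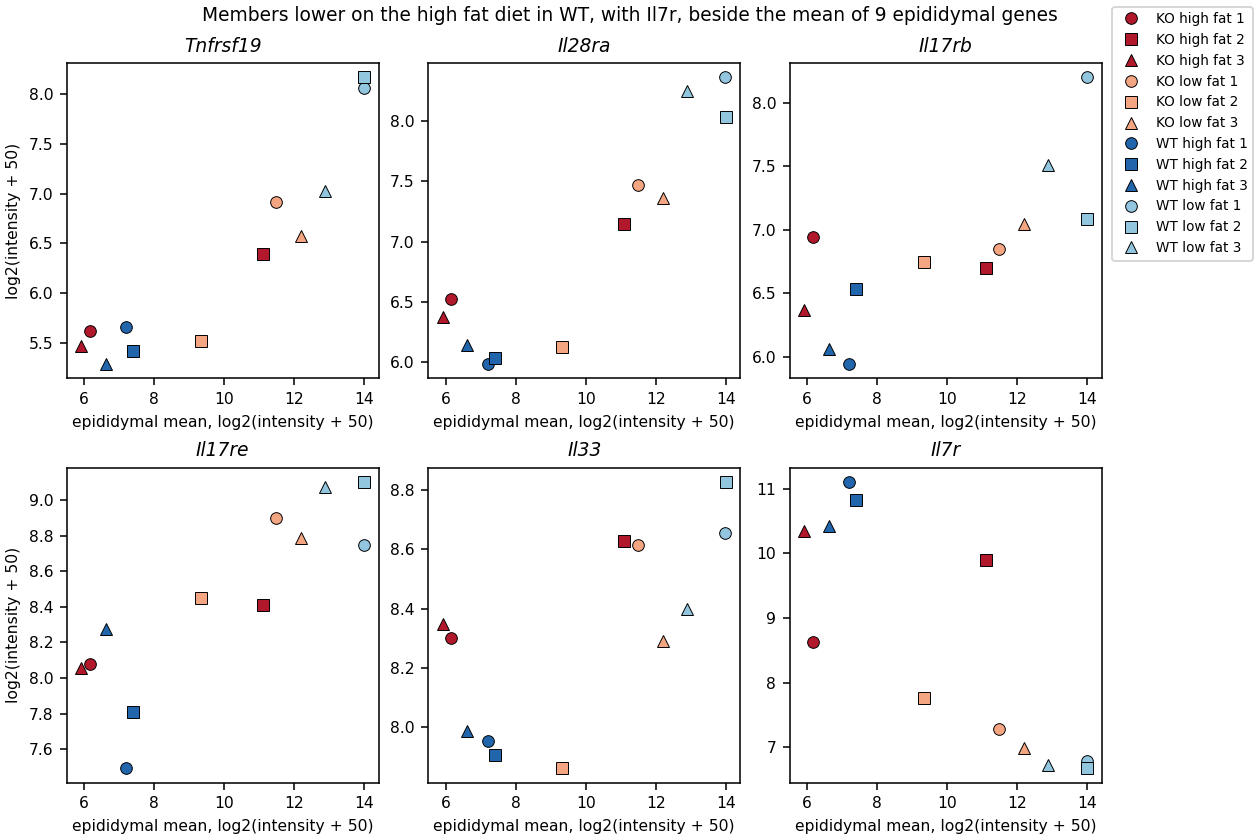
Log2(intensity + 50) of the 5 members that fell in wild type, and of Il7r, in each pool (vertical axes) against the mean log2(intensity + 50) of 9 epididymal genes in the same pool (horizontal axes). Tnfrsf19 is below the detection floor in each pool with an epididymal mean of 9.33 or less, and Tnfrsf19 and Il28ra are highest in the wild type pools on low fat.

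Macrophage genes moved with the rises. Of 7 listed markers 6 were measured, and 4 rose on high fat in knockout and all 6 in wild type, against 3.54% and 22.7% of all genes. The changes were 2.69 in knockout and 3.74 in wild type for Cd68, 1.67 and 2.29 for Lyz2, 1.08 and 2.08 for Csf1r, and 0.84 and 1.53 for Cd14. The sum of the 6 was 13233 to 18442 in knockout pools on high fat, 4155 to 7637 in knockout pools on low fat, 15477 to 26024 in wild type pools on high fat and 3626 to 6118 in wild type pools on low fat. Itgam was below the floor in every pool of all groups except wild type on high fat. Pool 2 of the knockout mice on low fat, which read high for Il10ra, Tnfrsf22 and Tnfrsf12a, also had the highest macrophage sum of its group. The same pool had the highest sum for adipocyte (139595), endothelial (8031), T cell (1357), seminal vesicle (6249), B cell, dendritic cell and NK cell genes. Its epididymal sum (13830) was the lowest. For mast cell, neutrophil, skeletal muscle and mesothelial genes it was not the highest. Some of these sums lay close together, as for B cell genes with 173 in pool 2 and 167 in pool 1. Why pool 2 read high was not tested.

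Of 10 T cell markers 8 were measured, and 1 rose in knockout (Thy1, 0.64) and 3 in wild type (Thy1 0.86, Cd2 0.73 and Cd3d 0.52), while Cd4 and Cd8a were not detected. The share called was 12.5% in knockout and 37.5% in wild type, against 4.35% and 39.5% of all genes. The T cell sum was 1535 to 1829.9 in knockout pools on high fat, 1057 to 1357 in knockout pools on low fat, 1786 to 2239 in wild type pools on high fat and 1064 to 1165 in wild type pools on low fat. Of 3 dendritic cell markers measured, Itgax rose in knockout (1.38) and in wild type (2.29), and Zbtb46 rose in wild type (0.51). Of 3 neutrophil markers measured, S100a8 (3.21) and Csf3r (0.80) rose in wild type. Lists of 3 genes are too small to be told apart from the shares of all genes. In bulk RNA, more cells of a type and more RNA per cell cannot be told apart, and the part of cell numbers in the members' changes was not tested.

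The counts on the next 4 lists stand against 4.35% of all genes called in knockout and 39.5% in wild type. Of 24 measured transducers of IL-1 and TNF receptors, 1 rose in knockout (Traf3, 0.52) and 12 rose and 1 fell in wild type. Among the rises in wild type were Irak3, a brake on IL-1 receptor signalling (0.99), Irak2 (0.84), Irak4 (0.78) and Relb, an NF-kB subunit (0.77). Of 15 NF-kB target genes, 3 rose in knockout, and 11 rose and 1 fell in wild type. The 3 were the serum amyloid Saa3 (2.63 in knockout, 4.07 in wild type), the chemokine Ccl2 (2.11 and 2.56) and Cd83 (1.05 and 2.29). Of 16 transducers of interleukin receptors, none was called in knockout (limma; 4 had an unadjusted p under 0.05), and 7 rose and 1 fell in wild type. The fall was of Cish, a feedback inhibitor of cytokine receptors (-1.47), and the rises included Jak3, the kinase bound to Il2rg (1.11), Socs3 (0.99) and Ptpn6 (0.90). Of 7 genes that mature or shed the ligands, 1 rose in knockout and 4 in wild type. They were Casp1, the protease that cleaves the precursors of Il1b and Il18 (1.12 in knockout, 1.98 in wild type), and in wild type Casp4 (1.23), Adam17, the sheddase of Tnf (0.97), and Pycard (0.61). In the order given, the median log2 changes of the 4 lists were 0.14, 0.49, 0.12 and 0.37 in knockout and 0.33, 0.72, 0.35 and 0.61 in wild type, against -0.012 and 0.061 over all genes.

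Between genotypes on the low fat diet, 4 members were called, 2 higher and 2 lower in knockout, which is 6.25% of the 64 against 7.85% of all genes (4.69% higher, 3.16% lower). Il16 read 463, 668 and 498 in knockout pools on low fat, against 275, 312 and 368 in wild type pools on low fat, a difference of 0.68 ± 0.17 (log2, SE; limma, adjusted p = 0.0411). Il15ra, with the values above, was higher by 0.54 ± 0.14 (limma, adjusted p = 0.0428), and the genotypes overlapped for neither gene. Il28ra was lower in knockout, at 127, 19.9 and 115 in knockout against 279, 212 and 254 in wild type, without overlap (log2 -1.23 ± 0.32, SE; limma, adjusted p = 0.0431). Tnfrsf21 (DR6), a death receptor, read 692, 448 and 442 in knockout pools on low fat, against 673, 991 and 937 in wild type pools on low fat, with overlap (log2 -0.68 ± 0.18, SE; limma, adjusted p = 0.0498). A second Tnfrsf21 probe read -0.10 without a call.

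These 4 calls lay near the threshold. In the 12 fits that left out 1 pool, the call was lost 11 times for Tnfrsf21, 10 for Il28ra, 9 for Il15ra and 8 for Il16. No member was called without knockout pool 1 on high fat, knockout pool 2 or 3 on low fat, or wild type pool 1 or 2 on low fat. The count was 1 without pool 3 of knockout on high fat, of wild type on high fat or of wild type on low fat. It was 2 without wild type pool 1 or 2 on high fat and 3 without knockout pool 2 on high fat. Without knockout pool 1 on low fat it was 7. Counts over all genes in these fits are not given, so no shift particular to the members is shown. Epididymal genes were lower in knockout here too, 3 of 9 called, as were seminal vesicle genes, 5 of 5 called, and Krt19 (-1.46), the 1 called of 4 mesothelial genes. Of 5 adipocyte genes 2 were higher in knockout, Cidec (0.82) and Lep (0.72). The part of any of these in the differences of Il16, Il15ra, Il28ra and Tnfrsf21 was not tested. The maturation list had 3 of 7 genes higher in knockout on low fat, Casp4 (0.98), Erap1 (0.89) and Casp1 (0.72), and the interleukin transducers had 2 of 16, Jak1 (0.67) and Socs2 (0.63).

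On the high fat diet no member was called between genotypes (limma; 8 of 64 had an unadjusted p under 0.05), against 0.0848% of all genes (0% higher, 0.0848% lower). The members with the lowest p were Il27ra and Il1rn. Il27ra read 252, 237 and 295 in knockout pools on high fat, against 409.9, 427 and 499.7 in wild type pools on high fat, a difference of -0.67 ± 0.12 with no overlap (log2, SE; limma, adjusted p = 0.0717). It was called without knockout pool 2 on low fat (limma, adjusted p = 0.0489), a pool outside this comparison that enters the common estimate of the spread. The second, dimmer Il27ra probe differed by -0.45 on high fat, not called. Il1rn read 105, 177 and 252 in knockout pools, against 495, 399.7 and 320.5 in wild type pools, -1.03 ± 0.24 (log2, SE; limma, adjusted p = 0.179), also without overlap. Over the 64 members the median difference was -0.10, against -0.019 over all genes. All 6 measured macrophage genes also read lower in knockout, with a median of -0.32 and none called (limma; 1 had an unadjusted p under 0.05), and their part in these differences was not tested.

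For the difference between the diet effects, computed as the knockout change minus the wild type change, the lowest p-values belonged to Il28ra at 1.85 ± 0.45 and Il27ra at -0.61 ± 0.17 (log2, SE; limma, adjusted p = 0.118 and 0.137). Il28ra thus fell less, and Il27ra rose less, in the knockout pools than in the wild type pools, by amounts that did not pass the test. Il7r and Il1rn differed by -1.78 ± 0.53 and -1.15 ± 0.34 (limma, adjusted p = 0.145 and 0.147). In the same contrast 4 of 5 seminal vesicle genes were called higher (median 4.89), and 9 of 9 epididymal genes were positive (median 3.28) with none called (limma; 4 had an unadjusted p under 0.05). The 6 macrophage genes were all negative (median -0.65) with none called (limma; 3 had an unadjusted p under 0.05). The part of these genes in the members' differences was not tested. The diet effects share no arrays with each other, while each genotype comparison shares its arrays with both diet effects.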

How the data were processed

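The data are 12 arrays of pooled RNA. The deposited normalized intensities were made by the authors with GenomeStudio, per the submitters' processing notes (module GSGX 1.9.0 per the file headers); 22.9% of them were below 0 and column medians lay between 33.3 and 33.6. The authors also deposited detection p-values, under array codes that no label ties to a sample, so they served only to count arrays, and slide or batch could not be set against groups. 20 signal columns that map to no sample were not used. Gene names were joined on 1 raw signal (within 0.05) and 12 detection p-values (within 1e-05) for all 25697 probes; symbols are those of the file.

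Log2(intensity + 50) of 11787 genes was fitted with limma 3.58.1 in R 4.3.3: 1 mean per group, 8 residual degrees of freedom, 5 contrasts, two-sided p adjusted by Benjamini and Hochberg over all genes, called under 0.05. The offset compresses changes of dim genes. P-values measure the spread between pools, and 3 arrays a group limit the precision. The floor is the intensity exceeded by 52.1% of values, the share of probes detected by the least sensitive array; "at least" folds set the pools of a dim group wholly under it to this value. The fit was tested on simulated data.

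Members, gene lists and tests were chosen with earlier results of these data known. Every called member is named; pool values are given for the 8 largest called diet changes in each genotype, up to 4 called members of other contrasts (or the 2 lowest p), and Tnf, Il1b, Il1rn, Il7r and Lta; up to 4 called genes are named per list. Alternatives changed the offset, the detection filter, the floor, the normalization, the probe choice, a covariate, the replicate block, the groups in the fit and the pools.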

Additional observations from a re-analysis of the deposited data

How the results depend on the processing

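The counts of members called were recomputed under each alternative. Counts over all genes under the alternatives are not given here, so the shifts are not shown to be particular to the members. In knockout on high against low fat, the 4 calls became 7 with genes detected on all 12 arrays or after cyclic loess, 1 with only the groups compared in the fit, 0 with the epididymal mean as a covariate, 2 to 9 when 1 pool was left out, and 15 without pool 2 of both knockout groups (chosen after seeing the data). In wild type the 32 calls became 19 with genes detected on all 12 arrays, where 33 members were left to test, 2 with the covariate, and 25 to 34 when 1 pool was left out. Between genotypes on low fat, the 4 calls became 2 with an offset of 30, 0 without a detection filter, 0 with the covariate, 0 with only the groups compared, 0 to 7 when 1 pool was left out, and 1 without pool 2 of both knockout groups. On high fat the 0 calls between genotypes became 1 with values set to the floor and 0 to 1 when 1 pool was left out. The difference between diet effects had no call under any alternative run. Apart from the number of genes or pools entering, the cause of these shifts was not tested.

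Replicate numbers were shared across groups but did not pair the pools: of 18 same-number pairs 3 had a correlation of deviations over 0.1 (range -0.81 to 0.16), and 1 pool matched its own number best. With the replicate number as a block, 3 members were called in knockout, 28 in wild type, 0 between genotypes on low fat, 0 on high fat and 0 for the difference between diet effects.

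With the epididymal covariate, the wild type diet change turned sign for Il17d (-0.0085), Il1b (-0.14), Lta (-0.0375) and Tnfrsf1a (-0.13). Without pool 1 of the knockout mice on high fat, the change of Lta in knockout was -0.005, and over all fits without 1 pool it was -0.005 to 0.193. With values set to the floor, Tnf and Lta in knockout had no change to give, since all their pools lay under it. Signal near background limits the rest: 41 of the 64 members had a mean intensity above the floor.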

Other observations

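Il13ra2, the decoy receptor of interleukin-13, was chosen after its values were seen. It read 54.4, 252 and 224 in knockout pools on high fat, against 68.9, 31.01 and 55.5 in knockout pools on low fat, and 76.4, 80.2 and 37.5 in wild type pools on high fat, against 93.8, 102 and 96.4 in wild type pools on low fat. The 2 highest of the 12 pools were thus knockout pools on high fat, and pool 1 of that group lay within the range of the low fat knockout pools. The log2 change was 1.03 in knockout and -0.38 in wild type, and neither these nor their difference of 1.41 was called (limma, adjusted p = 0.138, 0.401 and 0.166).

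Several genes had probes that gave different values. Tnfrsf10b, a TRAIL receptor, had a bright probe with a diet change of 0.046 in wild type, and 3 dimmer probes with 0.39, 0.64 and 0.52, of which the last 2 were called (limma, adjusted p = 0.0108 and 0.00757). In knockout the bright probe read -0.20, and the last of the dim probes was called there too (0.59, limma, adjusted p = 0.0276). Il15, the ligand of Il15ra, was not called in wild type by its brightest probe (0.48, limma, adjusted p = 0.0676 among all probes) and was called by a second one (0.67, adjusted p = 0.017). Il17rc was called in wild type by the dimmest of its 3 probes (0.63) and by neither of the others. Among 15765 probes tested by themselves, the brightest Il15ra probe missed the threshold in knockout (adjusted p = 0.0538), and that of Tnfrsf21 missed it between genotypes on low fat (adjusted p = 0.0532).

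No gene was called in knockout on high against low fat on these lists of other cells and tissues: 0 of 5 adipocyte, 0 of 5 endothelial, 0 of 3 B cell, 0 of 4 mast cell, 0 of 3 NK cell and 0 of 7 skeletal muscle genes (limma; unadjusted p under 0.05 for 1, 0, 1, 0, 0 and 1). In wild type 2 of 5 adipocyte genes rose and 1 fell, 3 of 5 endothelial and 1 of 3 B cell genes rose, no mast cell gene was called (unadjusted p under 0.05 for 0), 1 NK cell gene rose and 1 fell, and 2 skeletal muscle genes fell. Of all genes 4.35% were called in knockout and 39.5% in wild type. These lists are too small to be told apart from those shares.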
